A study of Mus musculus with 6 samples.

Results

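Solute carriers are the largest group of membrane transporters in mammals, and the expressed members of this superfamily were followed here in lipopolysaccharide-treated mouse macrophages with and without a small interfering RNA (siRNA) against the chemokine receptor gene Cxcr4. Members were the protein-coding genes with a symbol beginning Slc or Slco and a mean of at least 1 FPKM (read or fragment number divided by gene length and by the size of the library) over the 5 distinct libraries. Of 385 such genes among the 54532 listed, 152 reached that mean; 7 well-studied glucose, lactate, arginine, cystine and iron transporters (Slc2a1, Slc16a3, Slc7a2, Slc7a11, Slc11a1, Slc11a2 and Slc40a1) were left out by the rule, which left 145 members. The level chose the members, so the levels are a description. The rule did not use the difference between the siRNA groups, but it was set with earlier results of these data known. The 233 genes below the mean of 1 FPKM included 92 listed at 0 in all 5 libraries. The members just inside the limit were Slc1a2, Slc26a6 and Slc43a3, with means of 1.02, 1.03 and 1.08 FPKM, and the genes just outside it were Slc6a4, Slc19a2 and Slc25a40, with means of 0.990, 0.987 and 0.969 FPKM.

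The cells were macrophages that had been derived in culture from the bone marrow of C57BL/6 mice; the series title calls them monocyte-derived. In the siCXCR4 group they had been transfected with an siRNA against Cxcr4 and then treated with lipopolysaccharide (LPS) at 100 ng/ml for 12 hours. In the siNC group they had been transfected with a negative-control siRNA and given the same LPS treatment, so no library shows cells without LPS or without transfection. The labels name 3 samples per group, but the counts of the sample labelled siNC replicate 3 matched the reads behind siNC replicate 2 gene for gene, over 19072 genes. No gene with reads differed, so both were taken as 1 sample. All values below therefore compare 3 siCXCR4 with 2 siNC libraries. The deposited columns begin with mko for siCXCR4 and wt for siNC, and the sources do not explain mko. Whether replicates are separate animals or cultures is not labelled, so p-values here measure a spread that may be technical.

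The libraries held 18890751 to 21780840 reads in genes. Cxcr4 itself was at 31.1, 36.2 and 32.7 FPKM in the siCXCR4 libraries, against 41.3 and 42.1 FPKM in the siNC libraries, a log2 fold change of -0.32 (SE 0.0704, adjusted p = 0.457 by limma). The siRNA target was thus lower in all 3 siCXCR4 libraries, but not past the test over all genes. The 7 macrophage markers had means of 34.5 to 2365 FPKM, and their summed level was 3774 to 4083 FPKM in siCXCR4 and 3891 to 4041 FPKM in siNC. Of the 22 markers of other cell types, 19 were below a mean of 1 FPKM, with Siglech among those at 0 throughout. The exceptions were Cd4 (mean 1.49 FPKM), Kdr (5.35 FPKM) and S100a8, which was at 10.7 to 13.3 FPKM in siCXCR4 and 15.4 to 18.2 FPKM in siNC. S100a8 is a neutrophil marker that activated macrophages can also express; the other neutrophil markers, Ly6g, Mpo and Elane, had means of 0.0323 to 0.0396 FPKM, and the part of S100a8-expressing cells in the results was not tested.

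Solute carriers move small molecules across membranes by binding the substrate on one face and releasing it on the other, driven by the substrate's own gradient or by coupled sodium, protons or an exchanged solute. They are grouped into numbered families by sequence, and a family number usually tells the substrate. In macrophages, carriers at the cell surface take up amino acids, glucose, nucleosides and metals, carriers of the lysosome return digested amino acids, peptides, nucleosides and heme to the cytosol, and carriers of the inner mitochondrial membrane exchange metabolites between cytosol and matrix. Some also serve immune signalling: SLC15A4 on endolysosomes is needed for responses of several Toll-like receptors. Largely by family, the 145 members fell into 11 classes. These were 30 mitochondrial carriers, 21 amino acid carriers, 20 carriers of zinc, copper and magnesium, 19 of nucleotide sugars and 18 of inorganic ions. There were also 16 carriers of cofactors and organic ions, 9 of sugars, 4 of nucleosides, 3 of monocarboxylates and 2 of peptides. The last class was 3 genes that carry a solute carrier symbol but encode other proteins. The classes were fixed as a list of family numbers, with some genes placed apart from their family. Examples are Slc16a10 among amino acid carriers and Slc43a3 among nucleoside carriers.

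Promoter sequences are shown for 3 members that are named below. Slc2a6 is the most abundant sugar carrier, and Slc16a1 and Slc28a2 are among the members with the largest differences between the groups. The most abundant member, Slc15a3, and the member of lowest p, Slc25a37, had no matching promoter. The motifs were not used in any result on levels or differences. Each run is the 250 bases before the start of the gene in RefSeq, build GRCm38.p6, read 5′ to 3′ on the gene's strand. Capitals mark a kappaB-type motif of NF-kB, spelled GGGA, then 4 bases of any kind, then CC, and CACGTGAC, an E-box of the type bound by the lysosomal regulator TFEB, each searched on both strands.
Slc2a6, chr2:27027999-27028248, minus strand: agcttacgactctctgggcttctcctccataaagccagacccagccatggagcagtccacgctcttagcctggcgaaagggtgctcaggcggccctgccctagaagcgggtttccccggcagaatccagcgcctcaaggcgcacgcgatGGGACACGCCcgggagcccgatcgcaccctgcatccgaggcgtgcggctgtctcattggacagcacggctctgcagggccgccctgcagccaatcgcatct
Slc16a1, chr3:104638414-104638663, plus strand: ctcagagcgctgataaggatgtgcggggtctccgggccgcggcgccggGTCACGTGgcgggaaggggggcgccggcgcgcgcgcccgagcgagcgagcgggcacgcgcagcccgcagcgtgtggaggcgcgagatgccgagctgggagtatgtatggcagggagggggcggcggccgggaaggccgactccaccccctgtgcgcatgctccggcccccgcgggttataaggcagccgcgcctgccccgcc
Slc28a2, chr2:122426185-122426434, plus strand: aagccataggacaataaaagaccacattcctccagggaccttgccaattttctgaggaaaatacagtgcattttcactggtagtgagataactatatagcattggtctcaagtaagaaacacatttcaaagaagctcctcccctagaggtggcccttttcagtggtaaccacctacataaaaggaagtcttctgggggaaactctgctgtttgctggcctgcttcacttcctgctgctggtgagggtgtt
The Slc2a6 window holds 1 kappaB-type match, which begins 101 bases before the start, and the Slc16a1 window holds 1 E-box match, which begins 202 bases before it on the reverse strand. The Slc28a2 window holds neither run of letters. Of the 145 members, 110 matched the promoter table by symbol, with 148 promoters. The kappaB-type motif was present in 34 of these (23%), against 17.6% of all 32851 promoters of this length, and CACGTGAC in 10 (6.76%), against 1.85%. The GC box GGGCGG was present in 92 member promoters (62.2%), against 32.7% of all. An interferon-response motif (ISRE), spelled GAAA, then 2 bases of any kind, then GAAA, was present in 2 member promoters (1.35%), against 2.98% of all. The 9 members with the E-box were Slc12a7, Slc16a1, Slc20a1, Slc25a13, Slc25a14, Slc25a33, Slc35a5, Slc36a1 and Slc37a3. A match is a run of letters and no evidence of binding. The members were chosen by level while the set of all promoters was not, and the sets were not matched for base composition.

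A few carriers made up much of the solute carrier message. The 6 members above 100 FPKM held 41.1% of the summed member FPKM, 53 members lay between 10 and 100 FPKM, and 86 lay below 10 FPKM. The most abundant was Slc15a3, a proton-coupled histidine and peptide transporter of the endolysosome, at 346, 353 and 327 FPKM in siCXCR4 and 327 and 324 FPKM in siNC. Next came Slc31a2 (CTR2, which acts in copper handling in endosomes), Slc2a6 (GLUT6, a hexose transporter of the lysosomal membrane), Slc3a2 (CD98, the heavy chain of the heteromeric amino acid transporters), Slc28a2 (CNT2, a sodium-coupled purine nucleoside importer) and Slc25a5 (ANT2, the ADP/ATP exchanger of mitochondria), with means of 243, 225, 219.8, 179 and 144 FPKM. Slc15a3 stood at place 114, Slc2a6 at place 195 and Slc28a2 at place 258 by level among all listed genes.

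**Figure D1:**
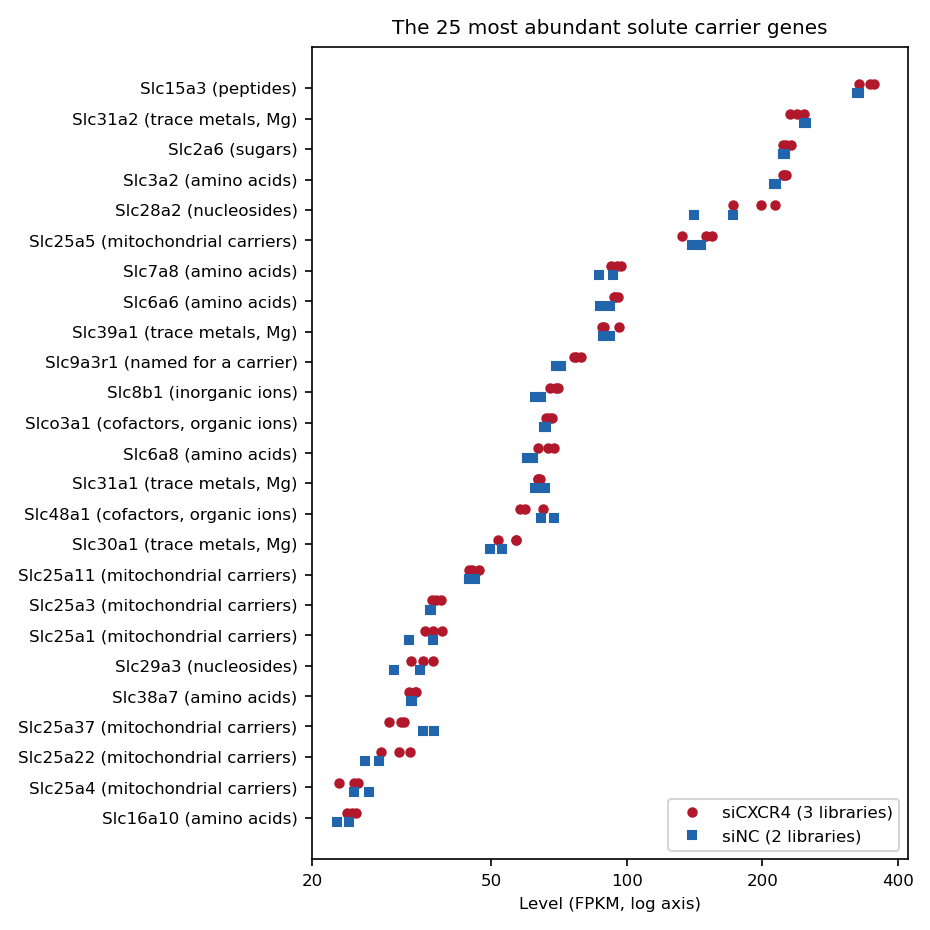
Levels of the 25 most abundant members in FPKM on a log axis, with red circles for the 3 siCXCR4 libraries and blue squares for the 2 siNC libraries. Slc15a3 lies at the top at 324 to 353 FPKM, and for most genes the points of the groups lie close together.

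The main question was whether carriers of any substrate class differed between siCXCR4 and siNC macrophages. By limma on log2(FPKM + 1), 0 of the 145 members had an adjusted p under 0.05, as had 0 of all 9943 genes tested (0%), and the smallest adjusted p of a member was 0.462. The tests on whole reads also called 0 members, with edgeR calling 17 of 12794 genes (0.133%) and DESeq2 28 of 23311 (0.12%). Without siCXCR4 replicate 2, edgeR called 312 of 12750 genes, and 1 of the 145 members was among them. It called 3 genes without siCXCR4 replicate 3 and 0 without siCXCR4 replicate 1. The half-width of the 95% interval of a member's log2 fold change had a median of 0.16, and for 143 of 145 members the whole interval lay within 0.5 of 0 on the log2 scale. For these 143, differences beyond that size on log2(FPKM + 1) lie outside the interval. This scale understates the fold changes of low genes, and 86 members lay below 10 FPKM. The intervals also rest on a spread between libraries that may be technical.

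At an unadjusted p under 0.05 there were 10 members (6.90%), 9 higher and 1 lower in siCXCR4. Among all genes tested the share was 9.34%, with 5.8% higher and 3.54% lower, so the members' share was no larger than the background. On whole reads the members numbered 11 by edgeR (7.59%), 7 higher and 4 lower, against 9.73% of the genes that edgeR tested, and 8 by DESeq2 (5.52%), 6 higher and 2 lower, against 2.97%; the DESeq2 background includes genes too low for the other tests. The limma count of 10 rested on which libraries were used, with 4 without siCXCR4 replicate 1, 12 without siCXCR4 replicate 2 and 7 without siCXCR4 replicate 3. Groups without overlap were found for 45 members, with siCXCR4 higher in 35 and lower in 10, which is 31.0% against 27.8% of all genes tested (17.9% higher and 9.92% lower). Above 0 were the log2 fold changes of 95 members (65.5%), against 56.4% of all genes tested, and the median was 0.03 (0.02 without siNC replicate 2), against 0.01. By edgeR, which scales on reads in genes, 86 members (59.3%) were above 0 against 48.1% of all genes, and the medians were 0.02 and -0.01. Fewer cells of a type and less RNA per cell cannot be told apart in such bulk samples.

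The summed level of the members was 3325, 3333 and 3305 FPKM in siCXCR4, against 3193 and 3213 FPKM in siNC. As a share of reads in genes this was 1.47%, 1.47% and 1.49% in siCXCR4, against 1.44% and 1.45% in siNC, so every siCXCR4 library was above both siNC libraries on both scales. Without Slc28a2 the shares were 1.3831%, 1.4003% and 1.3995% in siCXCR4 and 1.3787% and 1.3758% in siNC, so the siCXCR4 libraries were still above the siNC libraries, by less. The FPKM denominators also counted reads outside the listed genes, which were 0.00033%, 0.312% and 1.37% of them in siCXCR4 and 2.80% and 2.15% in siNC. The shares of reads in genes just given do not depend on those denominators.

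Replicates of a group lay close together for most members, with a median within-group SD of 0.06 on the log2 scale. The tightest was Slc39a3, a zinc importer, at 7.39, 7.41 and 7.31 FPKM in siCXCR4 and 7.13 and 7.098 FPKM in siNC. The widest was Slc22a4, at 4.17, 5.66 and 4.05 FPKM in siCXCR4 and 5.08 and 4.65 FPKM in siNC, where siCXCR4 replicate 2 was the highest of all 5 values. Slc28a2 was the fourth widest, so the member with the largest difference was also among those with the largest spread. Reads per member ran from 50 to 41417 in a library, and siCXCR4 replicate 2 held the highest value of 46 members, while siNC replicate 2 held the lowest of 45.

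**Figure D2:**
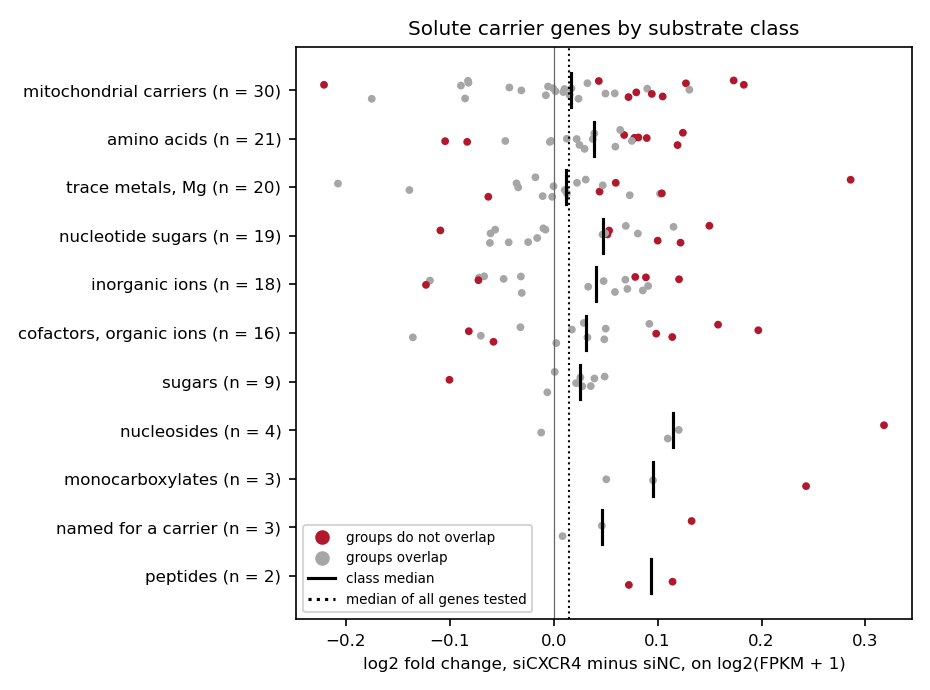
Log2 fold change of each member, siCXCR4 minus siNC on log2(FPKM + 1), by substrate class; red points are members whose groups do not overlap, black bars class medians and the dotted line the median of all genes tested. All class medians lie between 0.01 and 0.12, and Slc28a2 at 0.32 is the highest point.

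Nucleoside carriers had a class median of 0.12 over 4 members (0.07 without siCXCR4 replicate 3). Slc28a2 brings purine nucleosides such as adenosine and inosine into the cell with sodium. It was at 199, 172 and 213 FPKM in siCXCR4, with a mean of 195 ± 20.8 FPKM (SD, n = 3), against 141 and 172 FPKM in siNC, with a mean of 156 ± 21.9 FPKM (SD, n = 2). The groups did not overlap, but siCXCR4 replicate 2, at 172.2 FPKM, lay next to siNC replicate 2, at 171.7 FPKM. Its log2 fold change was 0.32 (SE 0.119, 95% interval 0.03 to 0.61, adjusted p = 0.513 by limma). Without siNC replicate 1 the limma log2 fold change was 0.18. Without siCXCR4 replicate 2, edgeR called Slc28a2 (log2 fold change 0.38, adjusted p = 0.0246), among 312 of 12750 genes called in that setting. The edgeR adjusted p was 0.815 without siCXCR4 replicate 1 and 0.674 without siCXCR4 replicate 3. The edgeR log2 fold change was 0.16 without siNC replicate 1 and 0.45 without siNC replicate 2. The gene (ENSMUSG00000027219) is on chromosome 2, plus strand, from 122426477 to 122461137 (GRCm38), beside its paralog Gm14085, which RefSeq names Slc28a2b. Slc28a2 had 13065 to 18239 reads per library and Gm14085 had 15 to 57. The sources used here do not say how reads shared by such copies were counted. Slc29a3, an equilibrative nucleoside transporter of lysosomes, was at 35.2, 33.2 and 37.03 FPKM in siCXCR4 and 30.4 and 34.7 FPKM in siNC, where replicate 2 of siNC lay among the siCXCR4 values. Slc29a1 (ENT1), the main equilibrative transporter of the cell surface, was at 7.33, 8.47 and 7.28 FPKM in siCXCR4 against 8.53 and 7.04 FPKM in siNC, with overlapping groups. Slc43a3, a purine nucleobase transporter, sat just above the level limit at 1.17, 0.971 and 1.31 FPKM in siCXCR4 and 0.995 and 0.954 FPKM in siNC.

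Monocarboxylate carriers, which move lactate, pyruvate and ketone bodies with protons, had 3 members, all above 0, with a median of 0.10 (0.19 without siNC replicate 1). Slc16a1 (MCT1) was at 3.49, 3.18 and 3.96 FPKM in siCXCR4, against 2.89 and 2.77 FPKM in siNC, on 242 to 336 reads per library. Every siCXCR4 value exceeded both siNC values, with a log2 fold change of 0.24 (SE 0.0859, 95% interval 0.04 to 0.45, adjusted p = 0.507 by limma). At this low level the pseudocount matters, and edgeR gave 0.30 on reads (adjusted p = 0.372). Slc16a6, known in zebrafish as an exporter of ketone bodies, was at 5.44, 5.93 and 6.202 FPKM in siCXCR4 against 5.16 and 5.67 FPKM in siNC. Its exons share 21.5% of their bases with Amz2 on the opposite strand, which averaged 713 reads against 564 for Slc16a6, and whether counting used the strand is not stated. Slc16a13 had 3.87, 3.39 and 3.05 FPKM in siCXCR4 and 3.69 and 2.89 FPKM in siNC and overlapped.

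Among the 30 mitochondrial carriers, 19 were above 0 (63.3%, against 56.4% of all genes tested) and 11 below. Their median was 0.02 (0.04 without siCXCR4 replicate 3, 0.03 without siNC replicate 1). By limma 3 had an unadjusted p under 0.05 (10%, against 9.34% of all genes tested), 2 of them higher and 1 lower. Slc25a37 (mitoferrin-1), which brings iron into mitochondria for heme and iron-sulfur cluster synthesis, had the lowest p of all members. It was at 31.5, 29.7 and 31.96 FPKM in siCXCR4, against 35.3 and 37.3 FPKM in siNC, so every siCXCR4 value lay below both siNC values. The means were 31.02 ± 1.21 FPKM (SD, n = 3) and 36.3 ± 1.42 FPKM (SD, n = 2), and the log2 fold change was -0.22 (SE 0.0555, 95% interval -0.35 to -0.09, adjusted p = 0.462 by limma). On whole reads the adjusted p was 0.121 by edgeR and 0.0766 by DESeq2. Its paralog Slc25a28 (mitoferrin-2) was at 15.04, 12.7 and 15.4 FPKM in siCXCR4 and 14.6 and 14.8 FPKM in siNC and overlapped. The ratio of mitoferrin-1 to mitoferrin-2 levels in FPKM was 2.09, 2.34 and 2.07 in siCXCR4, against 2.43 and 2.53 in siNC. The gene (ENSMUSG00000034248) is on chromosome 14, minus strand, at 69241848 to 69285112.

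Slc25a39, the importer of glutathione into mitochondria, was the member of next lowest p. It was at 23.1, 23.5 and 23.4 FPKM in siCXCR4, against 21.6 and 19.3 FPKM in siNC (log2 fold change 0.18, SE 0.0588, adjusted p = 0.501 by limma). The siCXCR4 values were nearly equal and lay above both siNC values, while the siNC replicates differed more; the log2 fold change was 0.26 without siNC replicate 1 and 0.11 without siNC replicate 2. Slc25a44, a carrier of branched-chain amino acids, was at 19.9, 21.1 and 20.5 FPKM in siCXCR4 and 18.9 and 18.4 FPKM in siNC, and Slc25a22, a glutamate carrier, at 31.1, 28.5 and 32.96 FPKM in siCXCR4 and 26.2 and 28.2 FPKM in siNC. Neither pair of groups overlapped, and the log2 fold changes were 0.13 (SE 0.0505) and 0.17 (SE 0.0726).

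The abundant mitochondrial carriers gave smaller values. Slc25a5 was at 149.7, 154 and 132 FPKM in siCXCR4 and 146 and 139.6 FPKM in siNC, and its paralog Slc25a4 (ANT1) at 25.3, 24.7 and 22.9 FPKM in siCXCR4 and 26.8 and 24.8 FPKM in siNC. Slc25a5 has processed pseudogene copies, so its count is uncertain. Slc25a11, the oxoglutarate carrier of the malate-aspartate shuttle, was at 46.9, 45.2 and 44.6 FPKM in siCXCR4 against 45.99 and 44.5 FPKM in siNC, and Slc25a3, the phosphate carrier that feeds ATP synthase, at 37.7, 38.7 and 36.98 FPKM in siCXCR4 against 36.8 and 36.5 FPKM in siNC. The log2 fold changes were, in the order given, 0.02, -0.08, 0.01 and 0.04, each with a 95% interval that spans 0. Slc25a1, which exports citrate for fatty acid synthesis, was at 35.6, 38.9 and 37.1 FPKM in siCXCR4 and 37.1 and 32.8 FPKM in siNC, again with overlap. Slc25a33, an importer of pyrimidine nucleotides, was at 4.65, 4.32 and 5.31 FPKM in siCXCR4 and 5.74 and 5.24 FPKM in siNC, with -0.18 (SE 0.0867) on the log2 scale and overlap at siCXCR4 replicate 3. Slc25a25, Slc25a26 and Slc25a30 had siCXCR4 values above the siNC values, with log2 fold changes of 0.07, 0.10 and 0.08. The class ran from -0.22 to 0.18.

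Amino acid carriers were above 0 in 16 of 21 members (76.2%, against 56.4% of all genes tested). The class median was 0.04 (0.06 without siCXCR4 replicate 1). Slc3a2, the chain that brings its light-chain partners to the surface, was at 226, 224 and 222 FPKM in siCXCR4, against 213 and 215 FPKM in siNC, on 14925 to 17340 reads per library. The replicates lay close together in each group and the groups did not overlap, for a log2 fold change of 0.07 (SE 0.04699, adjusted p = 0.676 by limma). Of its light chains, Slc7a5 (LAT1), which exchanges large neutral amino acids such as leucine, was at 15.7, 16.1 and 15.5 FPKM in siCXCR4 and 14.1 and 14.7 FPKM in siNC. Slc7a5 had a log2 fold change of 0.12 (SE 0.0497, adjusted p = 0.526 by limma) with no overlap. It was the only amino acid carrier at an unadjusted p under 0.05 (4.76% of the 21, against 9.34% of all genes tested). Groups did not overlap for 8 of the 21 (38.1%, against 27.8% of all genes tested), 6 higher and 2 lower in siCXCR4. Slc7a8 (LAT2), the most abundant light chain among the members, was at 94.98, 92.03 and 97.2 FPKM in siCXCR4 against 86.5 and 93.03 FPKM in siNC, while Slc7a7 (y+LAT1), which exports arginine and lysine, was at 11.3, 11.1 and 12.1 FPKM in siCXCR4 against 11.7 and 10.9 FPKM in siNC, both with overlap.

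Slc6a6, the taurine transporter, was at 93.8, 95.8 and 94.3 FPKM in siCXCR4 and 87.2 and 91.6 FPKM in siNC. The creatine transporter Slc6a8 was at 66.8, 63.3 and 68.9 FPKM in siCXCR4 and 61.8 and 60.1 FPKM in siNC, with a log2 fold change of 0.12 (SE 0.0546). Neither gene's groups overlapped. Carriers of the lysosomal membrane differed widely in level: Slc38a7, which exports glutamine, was at 33.9, 32.9 and 33.9 FPKM in siCXCR4 and 33.2 and 33.4 FPKM in siNC, and Slc38a9, the arginine-sensing carrier that signals to mTORC1, at 1.597, 1.64 and 1.68 FPKM in siCXCR4 and 1.82 and 1.77 FPKM in siNC. Slc38a9 was lower in every siCXCR4 library, as was Slc38a6, an orphan of the same family, at 6.85, 7.205 and 7.05 FPKM in siCXCR4 against 7.42 and 7.86 FPKM in siNC. Their log2 fold changes were -0.08 (SE 0.0692) and -0.10 (SE 0.0554), and that of Slc38a7 was 0.01 (SE 0.0459). On reads, edgeR gave -0.15 for Slc38a9 and -0.14 for Slc38a6 (adjusted p = 0.554 and 0.506). Slc38a2 (SNAT2), a glutamine and alanine importer, was at 17.5, 18.2 and 17.1 FPKM in siCXCR4 and 16.3 and 16.9 FPKM in siNC, and Slc36a4, of the PAT family of amino acid transporters, at 11.8, 12.1 and 11.3 FPKM in siCXCR4 and 11.01 and 10.9 FPKM in siNC. Both had siCXCR4 values above the siNC values, and the class ran from -0.10 to 0.12.

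Both peptide carriers had siCXCR4 values above the siNC values, as had 17.9% of all genes tested. Slc15a3, with the per-library levels given above, differed by 0.07 on the log2 scale (SE 0.0555), and its lowest siCXCR4 value, 327.5 FPKM, was next to the highest siNC value, 327.3 FPKM. Slc15a4 was at 11.5, 11.96 and 11.6 FPKM in siCXCR4, against 10.5 and 10.9 FPKM in siNC, with 0.11 (SE 0.0505, adjusted p = 0.5405 by limma). Slc15a3 levels in FPKM were thus 28.3 to 30.1 times those of Slc15a4 in siCXCR4 and 29.7 to 31.1 times in siNC.

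Carriers of zinc, copper and magnesium were spread around 0, with 11 of 20 above (55%, against 56.4% of all genes tested). The class median was 0.01 (-0.02 without siNC replicate 2 and -0.01 without siCXCR4 replicate 2). Slc39a11 (ZIP11), a zinc transporter, had the largest difference of the class, at 6.83, 7.83 and 7.103 FPKM in siCXCR4, against 6.57 and 5.04 FPKM in siNC. Its siNC replicates lay further apart than its siCXCR4 replicates, and the log2 fold change was 0.29 (SE 0.107, 95% interval 0.03 to 0.54, adjusted p = 0.512 by limma). Without siNC replicate 2 it was 0.12 and without siNC replicate 1 it was 0.45, so it depended on either siNC library. The copper carriers Slc31a2 and Slc31a1, which are neighbours on the plus strand of chromosome 4 at 62262562 to 62298411 and 62360727 to 62391769, differed in level. Slc31a2 was at 239, 247 and 229.9 FPKM in siCXCR4 and 248 and 250.3 FPKM in siNC, and Slc31a1 (CTR1), the high-affinity copper importer, at 64.2, 63.5 and 63.5 FPKM in siCXCR4 and 62.6 and 65.8 FPKM in siNC. Slc31a2 was slightly lower in every siCXCR4 library, with -0.06 (SE 0.0535, 95% interval -0.19 to 0.06), and Slc31a1 overlapped.

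Slc39a1 (ZIP1), a zinc importer of the cell surface, was at 89.01, 95.8 and 88.1 FPKM in siCXCR4 and 91.8 and 88.7 FPKM in siNC. Slc30a1 (ZnT1), which exports zinc, was at 56.7, 51.8 and 56.8 FPKM in siCXCR4 and 49.6 and 52.9 FPKM in siNC. Both overlapped between the groups. Slc39a14 (ZIP14), which carries zinc and iron, lay much lower, at 3.37, 3.73 and 3.15 FPKM in siCXCR4 and 3.6003 and 3.44 FPKM in siNC. Slc39a4, the intestinal zinc importer, sat near the limit of 1 FPKM, at 0.9904, 0.8305 and 1.29 FPKM in siCXCR4 and 1.28 and 1.404 FPKM in siNC. It had a log2 fold change of -0.21 (SE 0.112) with overlap. At this low level the pseudocount matters, and edgeR gave -0.39 on reads (adjusted p = 0.559). Slc30a9, Slc39a3 and Slc39a6 had siCXCR4 values above the siNC values, with log2 fold changes of 0.06, 0.04 and 0.10. The class ran from -0.21 to 0.29.

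Among sugar carriers, Slc2a6 was by far the most abundant and was at 222, 231 and 225 FPKM in siCXCR4, against 224 and 222 FPKM in siNC, a log2 fold change of 0.02 (SE 0.0489, 95% interval -0.10 to 0.14). Slc50a1 (SWEET1), a sugar uniporter, was at 9.93, 9.75 and 9.65 FPKM in siCXCR4 and 11.1 and 9.999 FPKM in siNC. Of the 9 sugar carriers it alone had no overlap (11.1%, against 27.8% of all genes tested), at -0.10 (SE 0.0599). That value was -0.03 without siNC replicate 1 and -0.17 without siNC replicate 2. Slc37a2, a sugar phosphate exchanger of the endoplasmic reticulum, was at 5.46, 5.45 and 6.24 FPKM in siCXCR4 against 5.08 and 5.91 FPKM in siNC, with overlap and a sign that turned without siNC replicate 1 (log2 fold change 0.05 with all libraries, -0.04 without it). The class had 7 of 9 members above 0 (77.8%, against 56.4% of all genes tested). By limma no member was at an unadjusted p under 0.05 (0%, against 9.34% of all genes tested). Its median was 0.03 (-0.02 without siNC replicate 1 and -0.00615 without siCXCR4 replicate 3).

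Carriers of inorganic ions were above 0 in 10 of 18 members (55.6%, against 56.4% of all genes tested). The class median was 0.04 (0.00569 without siCXCR4 replicate 3). Slc8b1 (NCLX), the sodium-calcium exchanger of mitochondria, was at 70.3, 69.5 and 67.4 FPKM in siCXCR4, against 62.6 and 64.3 FPKM in siNC. All siCXCR4 values were above the siNC values, for a log2 fold change of 0.12 (SE 0.04797, adjusted p = 0.526 by limma). Slc12a4 (KCC1), a potassium-chloride cotransporter, was at 21.2, 22.1 and 22.5 FPKM in siCXCR4 and 21.8 and 19.9 FPKM in siNC, and Slc12a9, a family member known as CIP1, at 16.2, 13.96 and 18.04 FPKM in siCXCR4 and 13.7 and 16.4 FPKM in siNC, both with overlap. In the other direction, Slc4a7, a sodium bicarbonate cotransporter, was at 1.62, 1.73 and 1.64 FPKM in siCXCR4 and 1.95 and 1.85 FPKM in siNC, and Slc20a2 (PiT2), a phosphate importer, at 1.499, 1.42 and 1.51 FPKM in siCXCR4 and 1.63 and 1.57 FPKM in siNC. Their log2 fold changes were -0.12 (SE 0.0705) and -0.07 (SE 0.0717). At these low levels edgeR gave -0.21 and -0.14 on reads (adjusted p = 0.393 and 0.755).

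Among the 16 carriers of cofactors and organic ions, 11 were above 0 (68.75%, against 56.4% of all genes tested). Their median was 0.03 (-0.00357 without siNC replicate 2). Slc27a1 (FATP1), which takes up long-chain fatty acids and activates them with coenzyme A, was at 22.1, 20.9 and 22.2 FPKM in siCXCR4, against 19.2 and 19.5 FPKM in siNC, on 2246 to 2804 reads per library. The groups did not overlap, with a log2 fold change of 0.16 (SE 0.0512, 95% interval 0.04 to 0.28, adjusted p = 0.501 by limma). Slc44a1 (CTL1), a choline transporter, was at 22.99, 24.1 and 23.97 FPKM in siCXCR4 and 21.9 and 21.7 FPKM in siNC, and its relative Slc44a2 at 12.9, 12.6 and 12.9 FPKM in siCXCR4 and 12.2 and 11.6 FPKM in siNC. Both had siCXCR4 values above the siNC values, with log2 fold changes of 0.11 (SE 0.0484) and 0.10 (SE 0.0513). Slco3a1, an organic anion transporting polypeptide, was the most abundant of the class at 68.3, 66.99 and 66.1 FPKM in siCXCR4 and 66.2 and 65.4 FPKM in siNC, with overlap. Slc18a1, a vesicular monoamine transporter, was at 1.66, 1.62 and 1.93 FPKM in siCXCR4 and 1.21 and 1.58 FPKM in siNC, with a log2 fold change of 0.20 (SE 0.0989; 0.09 to 0.31 with 1 library left out) and no overlap.

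Slc48a1 (HRG1), which moves heme out of the phagolysosome after red cells are digested, was at 59.3, 65.01 and 57.8 FPKM in siCXCR4, against 68.9 and 64.6 FPKM in siNC. Its log2 fold change was -0.14 (SE 0.0664), and siCXCR4 replicate 2 lay above the lower siNC value. Slc23a2 (SVCT2), the ascorbate importer, was at 17.96, 19.1 and 18.9 FPKM in siCXCR4 and 19.6 and 20.1 FPKM in siNC, and Slc22a5 (OCTN2), the carnitine importer, at 4.35, 4.502 and 4.13 FPKM in siCXCR4 and 4.55 and 4.54 FPKM in siNC. Both were lower in every siCXCR4 library, with log2 fold changes of -0.08 (SE 0.0516) and -0.06 (SE 0.0603). Slc22a4 (OCTN1), the ergothioneine importer beside Slc22a5 on the minus strand of chromosome 11, overlapped, with the values given above.

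The class called nucleotide sugar carriers was set by family number, so a member need not carry a nucleotide sugar. It holds the SLC35 family, which includes carriers that feed glycosylation in the Golgi and endoplasmic reticulum, and the acetyl-CoA carrier Slc33a1. Above 0 were 10 of its 19 members (52.6%, against 56.4% of all genes tested). No member of the class was at an unadjusted p under 0.05 by limma (0%, against 9.34% of all genes tested). Slc33a1 was at 6.96, 6.66 and 6.696 FPKM in siCXCR4 and 7.37 and 7.39 FPKM in siNC, with -0.11 (SE 0.0524) and no overlap. Slc35e3, an orphan of the family, was at 3.33, 3.67 and 3.45 FPKM in siCXCR4 and 3.05 and 3.04 FPKM in siNC, with 0.15 (SE 0.0644). The most abundant of the class were Slc35f6, Slc35f5 and Slc35a4, with means of 19.7, 19.6 and 19.3 FPKM and log2 fold changes of 0.10, 0.05 and -0.02. Slc35b2, which supplies the sulfate donor to the Golgi, was at 12.1, 11.6 and 12.6 FPKM in siCXCR4 and 11.4 and 10.6 FPKM in siNC, with no overlap. The class had 5 members with siCXCR4 values above the siNC values and 1 with values below them (31.6%, against 27.8% of all genes tested). Its median was 0.05 (0.01 without siCXCR4 replicate 1).

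Of the 3 genes that are not carriers, Slc9a3r1 encodes NHERF1, a scaffold that tethers membrane proteins to the actin linker ezrin. It was at 79.02, 76.3 and 77.1 FPKM in siCXCR4, against 69.7 and 71.5 FPKM in siNC, with no overlap and a log2 fold change of 0.13 (SE 0.0472, adjusted p = 0.509 by limma). Slc4a1ap, which encodes kanadaptin, and Slc7a6os, named for its place opposite Slc7a6, had overlapping groups, with log2 fold changes of 0.05 and 0.01. Without siNC replicate 1 the value of Slc4a1ap was -0.03, and the median of the 3 genes, 0.05 with all libraries, was -0.00252.

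**Figure D3:**
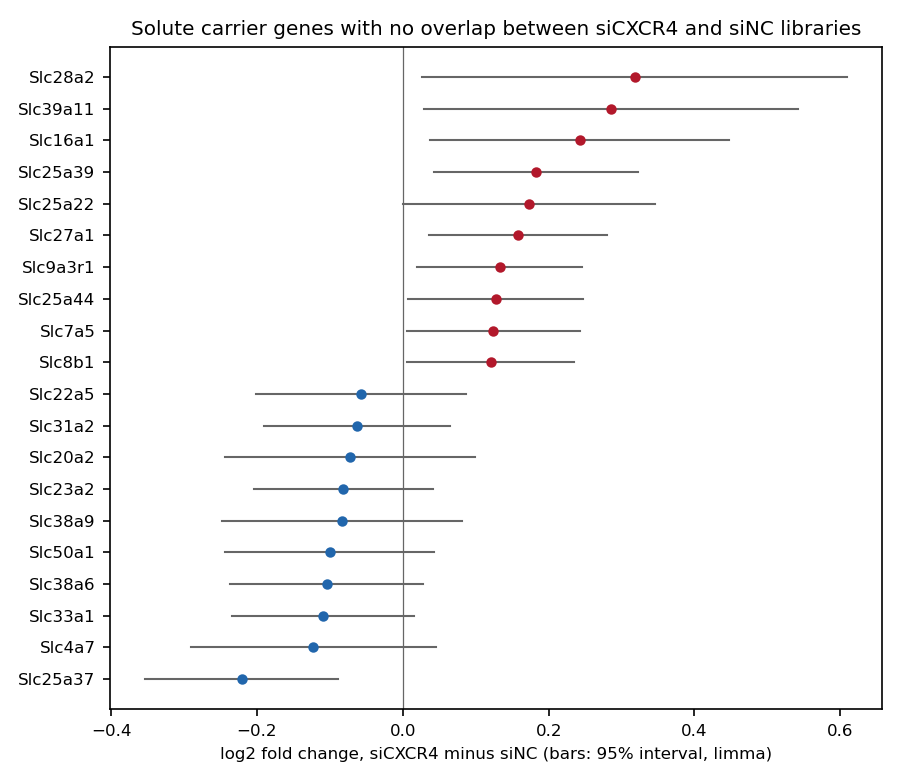
Log2 fold change of 20 members whose groups do not overlap (the 10 of lowest p on the higher side and all 10 on the lower side), siCXCR4 minus siNC, with 95% intervals by limma. Only Slc25a37 among the lower genes has an interval that leaves out 0, and 0 of the 20 pass the test over all genes.

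**Figure D4:**
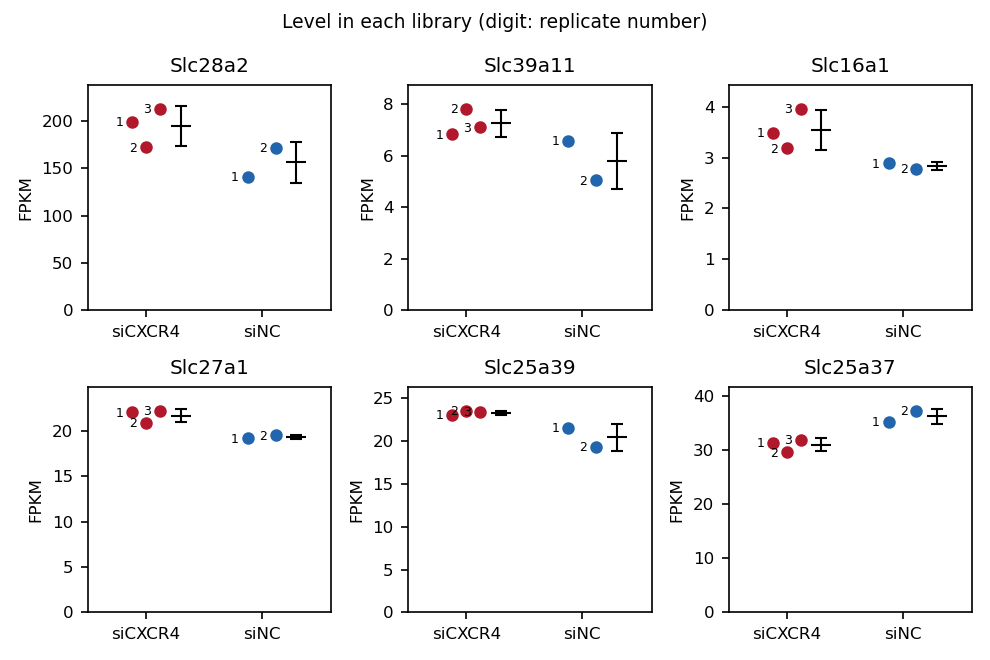
FPKM in each library of 6 members, siCXCR4 left (red) and siNC right (blue), with digits for the replicate number and black bars for the mean and SD (n = 3 and n = 2), from 0. Slc28a2 at 172.2 and 171.7 FPKM nearly touches between the groups, while Slc27a1 and Slc25a37 are further apart.

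Other membrane carriers and partners without a solute carrier symbol were followed as a list of 23 symbols, of which 21 were found and 19 reached the test. Of these 14 were above 0 (73.7%, against 56.4% of all genes tested), with a median of 0.03. By limma 1 was at an unadjusted p under 0.05, higher in siCXCR4 (5.26%, against 9.34%). Groups without overlap were found for 5 (26.3%, against 27.8%). Mfsd12, which imports cysteine into lysosomes and melanosomes, was at 67.2, 64.01 and 65.6 FPKM in siCXCR4, against 58.2 and 60.1 FPKM in siNC (log2 fold change 0.15, adjusted p = 0.504 by limma). Ucp2, a proton and metabolite carrier of mitochondria, was at 39.7, 40.2 and 38.8 FPKM in siCXCR4 and 37.1 and 36.7 FPKM in siNC, and Mpc2, a subunit of the mitochondrial pyruvate carrier, at 1.65, 1.62 and 1.49 FPKM in siCXCR4 and 1.82 and 1.82 FPKM in siNC. The groups of these 3 genes did not overlap, with Mpc2 lower in siCXCR4. Unc93b1, the chaperone that escorts endosomal Toll-like receptors, was at 238, 235 and 231 FPKM in siCXCR4 and 232 and 223 FPKM in siNC, and Bsg, which carries monocarboxylate transporters to the surface, at 86.03, 88.3 and 73.3 FPKM in siCXCR4 and 81.9 and 76.2 FPKM in siNC, both with overlap. The gene listed as 5430427O19Rik, known as Tasl, an adaptor that SLC15A4 needs for its signalling role, was at 3.28, 3.35 and 3.602 FPKM in siCXCR4 and 3.14 and 3.08 FPKM in siNC, with no overlap.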

How the data were processed

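Each sample of this RNA sequencing study has 1 gene table. In 5 of them the deposited values had been normalized by the authors and are taken as FPKM, since multiplying them by gene length gave whole numbers of a constant unit in each library (100% of values within 0.05). The headers name no unit, and FPKM cannot be told from RPKM. The siNC replicate 3 table holds deposited whole read counts, which repeat siNC replicate 2. The submitters' processing notes name mm9, but 98.3% of shared genes, and 138 of 145 members, have their GRCm38 position, and coordinates are printed as the files give them. The aligner, counting tool, strand setting and multi-mapping rule are not stated in the sources.

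Limma 3.58.1 (R 4.3.3; trend and robust estimate, two-sided, Benjamini-Hochberg over all genes) was fitted to log2(FPKM + 1) of the 9943 genes whose mean reached 1 FPKM; fold changes on this scale understate those of low genes. The design was planned on 6 libraries, and 5 distinct ones remained. EdgeR 4.0.16 (TMM, quasi-likelihood) and DESeq2 1.42.0 ran on the recovered whole reads. Scripts were tested on simulated data. Other alternatives were a pseudocount of 0.1, no filter on level, a minimum mean of 5 FPKM, median scaling, limma without trend and robust estimate, the copy as a separate replicate, a replicate block and each library left out; edgeR with each library left out was added after the data were seen.

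Named by rule were, per class, the 3 most abundant members and the 2 of lowest p, the 10 in each direction of lowest p whose groups do not overlap, any member called on whole reads, the 3 genes on either side of the level limit, and the 3 related carriers of lowest p. Other genes were named after their values were seen. Results of some genes are not reported here. Members and lists were chosen with earlier results of these data known. Exons of 31 members overlap another gene with reads, in 12 cases one with a sizeable count beside the member's own. Depth limits the precision: reads per member ran from 50 to 41417 in a library, and without molecular identifiers these reads need not be separate molecules.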

Additional observations from a re-analysis of the deposited data

How the results depend on the processing

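The number of members past the test was 0 under each of the other settings, and 1 (Slc28a2) by edgeR without siCXCR4 replicate 2. The number of all genes past the test, 0 by limma, was 17 by edgeR, 28 by DESeq2 and 6 with the copy of siNC replicate 2 as a separate replicate. It was 0 to 1 by limma with 1 library left out, and by edgeR 312 without siCXCR4 replicate 2, 20 without siNC replicate 2, 5 without siNC replicate 1, 3 without siCXCR4 replicate 3 and 0 without siCXCR4 replicate 1. The 10 members at an unadjusted p under 0.05 became 24 with the copy as a replicate and 2 to 12 by limma with 1 library left out. By edgeR they were 5 without siCXCR4 replicate 1, 16 without siCXCR4 replicate 2 and 4 without siNC replicate 1. These settings use fewer samples or repeat one; for the other settings the cause was not tested. Correlations of deviations from the group means were -0.0400 for replicates 1 and -0.111 for replicates 2. With 2 siNC libraries their deviations are mirror images, so whether replicate numbers pair samples cannot be judged. With a replicate block 3 members were at an unadjusted p under 0.05. The medians with the block were 0.00569 for inorganic ions, 0.0208 for nucleotide sugars and 0.0337 for related carriers. The median over members, 0.0324, was 0.0393 with a pseudocount of 0.1, 0.0220 by edgeR and 0.0198 to 0.0391 with a library left out. At a mean of at least 5 FPKM the class median was 0.0636 for amino acids, 0.0690 for inorganic ions and 0.133 for the genes that are not carriers. The nucleotide sugar median was 0.0323 by edgeR and 0.0364 with the copy, and that of related carriers 0.0129 by edgeR, 0.0194 by DESeq2 and 0.0416 with the copy. With a library left out, class medians ran from 0.0345 to 0.0625 for amino acids, -0.00357 to 0.0468 for cofactors, 0.00569 to 0.0452 for inorganic ions, 0.0113 to 0.0394 for mitochondrial carriers, 0.0698 to 0.166 for nucleosides, 0.0876 to 0.187 for monocarboxylates, -0.00252 to 0.127 for genes that are not carriers, 0.0104 to 0.0433 for nucleotide sugars, -0.0171 to 0.0496 for sugars, -0.0159 to 0.0458 for metals and 0.0222 to 0.0431 for related carriers. Monocarboxylates were above nucleosides without siCXCR4 replicate 1 or 3 and without siNC replicate 1. Of 412 values of 30 named members over the alternatives, 408 kept their direction and 0 passed the test. These values leave out edgeR with a library left out, where Slc28a2 passed without siCXCR4 replicate 2. Much of the agreement was fixed beforehand. The 2 other level filters and limma without trend and robust estimate left the fold changes as they were. The replicate block repeated those without siCXCR4 replicate 3. Where groups do not overlap, limma with a library left out or with the copy cannot reverse the sign. Most of these members were chosen for low p or groups that do not overlap. Over all members, 88 of 145 kept their sign under every one of the 14 planned settings that tested them. Reversed were Slc4a1ap without siNC replicate 1 (-0.0340) and Slc37a2 with the block or without siCXCR4 replicate 3 (-0.00615) and without siNC replicate 1 (-0.0429), its range being -0.0429 to 0.141 with a library left out. Leaving out a siNC library leaves 1, assumed to vary like the others.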
